A study of Mus musculus with 16 samples.

Results

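The NK receptor set followed here in donor T cells holds 9 genes of receptors and granule proteins first described on natural killer (NK) cells: Klrc1, Klrc2, Klrd1, Klre1, Klrk1, Klrg1, Klrb1c, Ncr1 and Nkg7. They were chosen by name, with earlier results of these data known. Each was measured by the probe whose accession belongs to it. Where a gene had several probes, the one of highest mean over the 16 arrays stood for it. Of the 9 genes, 8 had a probe on the array and 7 passed the filter on dim probes, which asks that 1 or more groups have the probe well above background throughout; Klrc2 was not analysed here, and Ncr1 did not pass that filter. The T cells came from female mice of C57BL/6 background that had received a haematopoietic stem cell transplant, either allogeneic (from a genetically different donor, the setting of graft-versus-host disease) or syngeneic (from a genetically identical one). The groups were allogeneic ovarian CD8+ (4 arrays), allogeneic splenic CD8+ (3), syngeneic splenic CD8+ (3), allogeneic ovarian CD4+ (2), allogeneic CD4+ from spleen (2) and syngeneic CD4+ from spleen (2) cells, so every group carries donor cells of a transplant recipient and none comes from an untransplanted mouse. Cells were sorted through 2 rounds, no more than 10000 per sample, and their amplified RNA was hybridised to one-colour Agilent arrays. Whether replicates are separate mice is not stated in the labels, so p-values measure the spread between these samples only.

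NK cells read the health of a cell through receptors of the C-type lectin-like family, whose genes sit together in the NK gene complex. CD94 (Klrd1) pairs with NKG2A (Klrc1), an inhibitory chain, or with NKG2C (Klrc2), an activating one, to recognise the non-classical MHC molecule Qa-1, while NKG2D (Klrk1) is an activating receptor for stress-induced ligands. KLRG1 is an inhibitory receptor for cadherins that marks differentiated effector T cells, Klrb1c encodes NK1.1, the classic marker of mouse NK and NKT cells in the C57BL/6 strain, Ncr1 encodes NKp46, and Nkg7 encodes a protein of cytotoxic granules. Activated CD8+ T cells can take up several of these genes.

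Levels are given as log2 of the processed signal minus the 75th percentile of the same array, so a value of 0 is a spot as bright as that percentile. A level is compared only between samples, never between genes. The summed level of a list adds linear levels over its genes, so it rests mostly on the brightest probes, and it too is compared only between samples. Across the 16 arrays the 75th percentile lay between 67.56 and 449.7 signal units, between 41.84% and 59.37% of probes were well above background, and no probe was saturated; the 2 dimmest arrays were replicate 2 of the ovarian CD4+ and of the allogeneic splenic CD4+ group. Each group lies on both slides. The sort labels matched their markers: in the ovary Cd8a was at least 481-fold higher and Cd8b1 was 8.08 ± 0.26 higher on the log2 scale (SE) in CD8+ than in CD4+ cells, and Cd4 was lower by -3.27 ± 0.19. Calls are at an adjusted p under 0.05 (Benjamini-Hochberg) in a limma model of all 22836 features over the 16 arrays, and adjusted p below always means that model. In sorted bulk samples, more cells expressing a gene and more RNA of it per cell cannot be told apart.

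**Figure D1:**
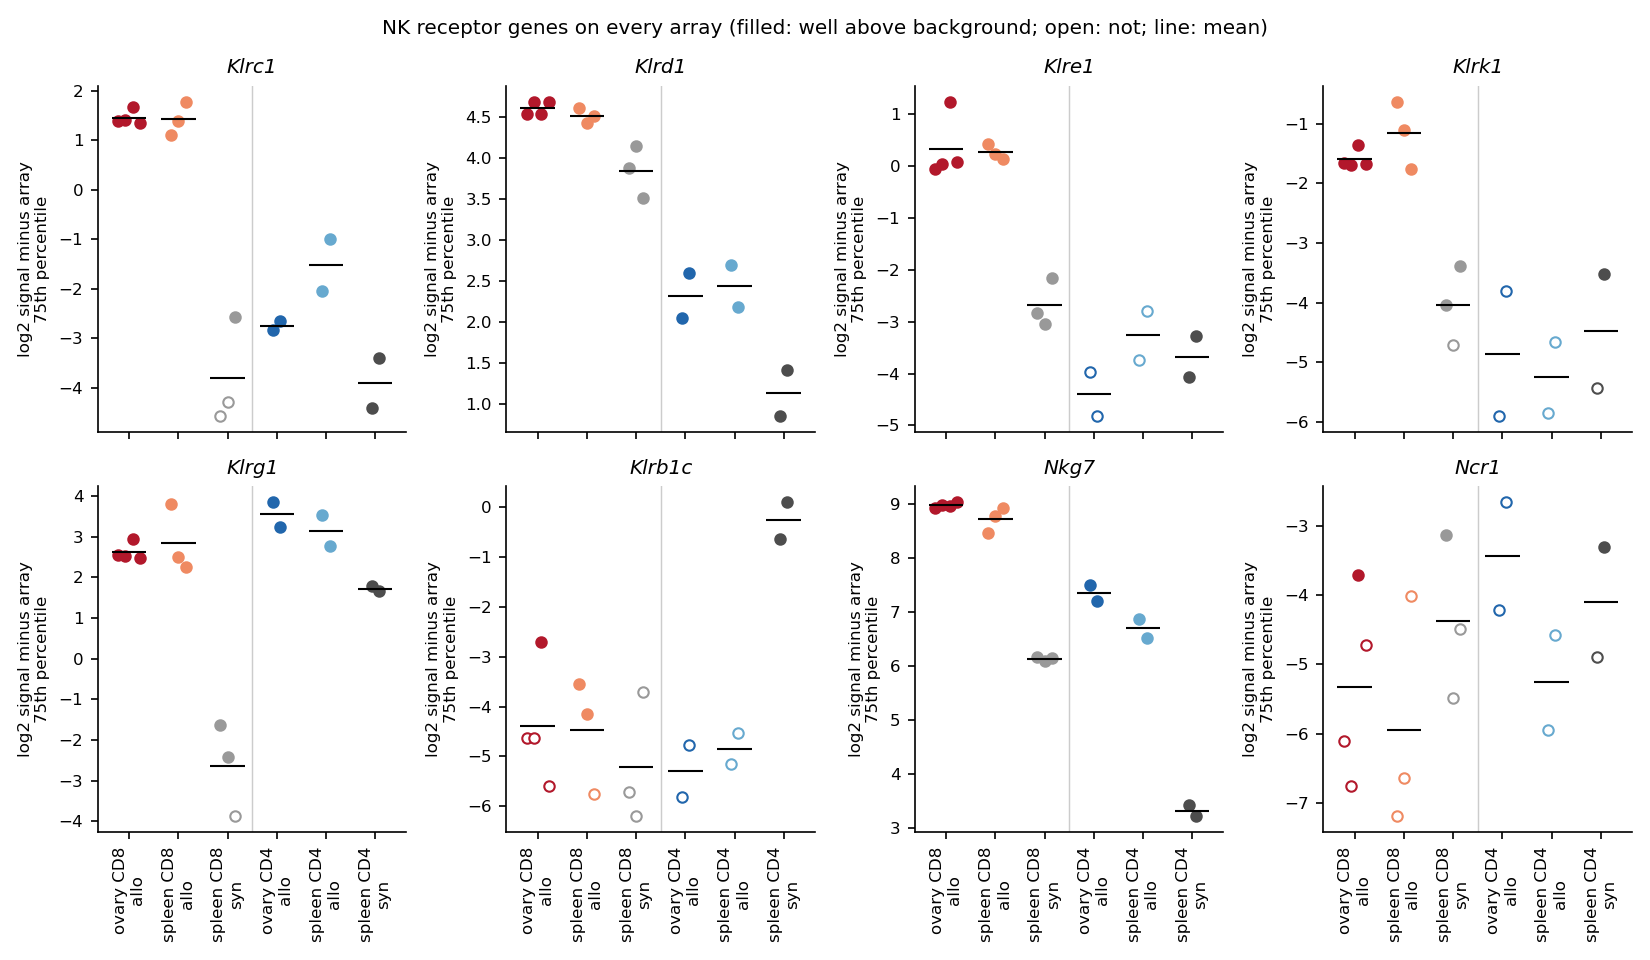
Level of 8 NK receptor genes (log2 signal minus the array's 75th percentile, vertical axis) on each of the 16 arrays, by group; filled points were well above background, open points were not, and lines are group means. Klrc1, Klre1, Klrk1 and Klrg1 are high on all 7 allogeneic CD8+ arrays and low on the 3 syngeneic ones, while Klrb1c is high on the 2 syngeneic CD4+ arrays.

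The comparison of allogeneic with syngeneic splenic CD8+ cells asks how the allogeneic setting changes donor CD8+ cells of 1 organ. Of the genes tested, 6 rose in the allogeneic cells, Klrc1, Klrd1, Klre1, Klrk1, Klrg1 and Nkg7, and none fell. Those 6 of 7 genes tested stand beside 18.8% of all features that were called higher. Among the 6, Klrk1 passed the filter through the allogeneic CD8+ groups alone. The median difference over the 7 genes was 2.88, against -0.16 over all features. In the same comparison 6 of 8 B cell genes fell, beside 19.6% of all features. Their summed levels relative to the 75th percentile were 3.64 to 5.57 in allogeneic and 14.7 to 23.1 in syngeneic CD8+ cells, and their part in the receptor differences was not tested.

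Among the inhibitory receptors, Klrc1 (NKG2A) had levels of 1.11, 1.38 and 1.78 in allogeneic splenic CD8+ cells, against -4.57, -4.29 and -2.57 in syngeneic ones, where only 1 of the 3 arrays was well above background. The groups did not overlap, and the difference was 5.23 ± 0.46 (SE, adjusted p = 3.21e-06), or 37.5-fold, a size that rests on a syngeneic level close to background. Klrg1 had levels of 3.80, 2.50 and 2.25 in allogeneic cells, against -1.64, -2.43 and -3.88 in syngeneic ones, with 2 of those 3 arrays well above background. Every allogeneic array was high and every syngeneic array low, with a difference of 5.49 ± 0.51 (adjusted p = 4.92e-06). Klrd1, the CD94 chain shared by the NKG2 receptors, had 4.61, 4.42 and 4.52 in allogeneic cells, against 3.88, 4.15 and 3.52 in syngeneic ones. Klrd1 was thus well above background in both groups, and the smallest of the 6 differences was its 0.67 ± 0.21 (adjusted p = 0.0262). That call was lost without allogeneic replicate 1 (adjusted p = 0.0778), syngeneic replicate 1 (0.0547) or syngeneic replicate 3 (0.108), and, among other settings, under quantile normalization (0.11).

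The activating receptor gene Klrk1 (NKG2D) had -0.63, -1.11 and -1.76 in allogeneic splenic CD8+ cells, against -4.04, -4.71 and -3.39 in syngeneic ones, where 2 of 3 arrays were well above background. All allogeneic arrays lay above all syngeneic ones, and the difference was 2.88 ± 0.60 (adjusted p = 0.0023). Klrk1 passed the filter through the allogeneic CD8+ groups alone, so filter and test read the same high values. Klre1, a lectin-like receptor that pairs with KLRI chains in mouse NK cells, had 0.43, 0.24 and 0.13 in allogeneic cells, against -2.83, -3.04 and -2.16 in syngeneic ones. These groups were apart on every array, by 2.94 ± 0.40 (adjusted p = 0.000102). Nkg7 had 8.47, 8.77 and 8.93 in allogeneic cells, against 6.16, 6.10 and 6.15 in syngeneic ones. Its 3 syngeneic arrays agreed closely, the difference was 2.59 ± 0.15 (adjusted p = 9.85e-08), and its second probe gave 2.96 ± 0.26. Klrb1c averaged -4.48 ± 1.14 in allogeneic and -5.21 ± 1.33 in syngeneic cells (SD, n = 3 each), with overlapping arrays and an interval of the difference that spans 0. With slide as a block all 6 genes were called, and each of the 6 was higher on both slides. Slide 1 holds 1 syngeneic and slide 2 holds 1 allogeneic array of this pair of groups, so a fit of 1 slide takes the spread of that lone array from the other groups; on slide 2 such a fit called 3 of the genes, Klrc1, Klrg1 and Nkg7, beside 1901 of all features.

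In genome order, Klre1, Klrd1, Klrk1, Klrc3, Klrc2 and Klrc1 are consecutive genes on mouse chromosome 6 (RefSeq, assembly GRCm38.p6). All 4 of these members that were measured rose in allogeneic CD8+ cells, and so did their neighbour Klrc3, by 5.07 ± 0.39 (adjusted p = 1.08e-06); Gabarapl1, a gene of autophagy, flanks the run on the Klre1 side. Klrc1, Klrc2 and Klrc3 are near-identical in sequence, the probe letters were not used here, and the share of signal that their transcripts may lend one another was not tested. Promoter windows of 300 bases, reaching from 250 bases before to 50 after the annotated start, were found in the RefSeq table for 7 of the 9 genes. The windows of 4 are shown because these genes rose together in allogeneic splenic CD8+ cells. They lie at chr6:129678924-129679223 on the minus strand for Klrc1, chr6:129623815-129624114 on the minus strand for Klrk1, chr6:129577963-129578262 on the plus strand for Klre1 (the first of its 2 windows) and chr7:43436888-43437187 on the plus strand for Nkg7, in GRCm38.p6 coordinates. Each reads 5′ to 3′ on the gene's own strand, and capitals mark a T-box core (TCACAC or its reverse complement GTGTGA) or a Runx core (TGTGGT or its reverse complement ACCACA); the 2 motifs share no letters in these windows.
Klrc1: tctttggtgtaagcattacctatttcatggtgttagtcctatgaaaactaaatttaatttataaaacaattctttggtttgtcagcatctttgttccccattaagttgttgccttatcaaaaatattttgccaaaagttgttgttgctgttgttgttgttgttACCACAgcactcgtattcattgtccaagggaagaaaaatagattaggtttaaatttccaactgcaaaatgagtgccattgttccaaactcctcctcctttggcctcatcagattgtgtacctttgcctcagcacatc
Klrk1: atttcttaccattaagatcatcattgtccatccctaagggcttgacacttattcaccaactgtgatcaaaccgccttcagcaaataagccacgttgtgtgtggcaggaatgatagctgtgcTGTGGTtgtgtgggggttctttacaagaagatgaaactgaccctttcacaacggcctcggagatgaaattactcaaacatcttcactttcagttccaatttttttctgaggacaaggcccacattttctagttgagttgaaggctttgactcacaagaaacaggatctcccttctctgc
Klre1: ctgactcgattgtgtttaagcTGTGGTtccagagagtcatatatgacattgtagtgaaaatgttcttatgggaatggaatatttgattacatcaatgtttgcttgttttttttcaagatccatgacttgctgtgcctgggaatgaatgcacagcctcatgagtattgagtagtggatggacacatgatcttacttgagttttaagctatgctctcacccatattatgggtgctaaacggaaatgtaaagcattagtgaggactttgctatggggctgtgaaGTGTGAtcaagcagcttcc
Nkg7: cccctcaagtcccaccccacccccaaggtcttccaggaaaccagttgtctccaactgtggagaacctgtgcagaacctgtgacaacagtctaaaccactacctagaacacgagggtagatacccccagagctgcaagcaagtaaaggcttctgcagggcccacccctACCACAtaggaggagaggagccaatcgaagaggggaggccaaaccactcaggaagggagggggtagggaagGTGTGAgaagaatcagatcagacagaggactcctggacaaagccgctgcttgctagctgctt
The Runx core stood once in each of these 4 windows, but not in the second window of Klre1, and it was in 9 of all 10 windows of the 7 genes, those of Klrb1c and Ncr1, which were not called in this comparison, and of Klrc2 included. It was in 16.7% of the 32544 distinct promoter windows of the table. A T-box core stood in both windows of Klre1, in that of Nkg7 and in both of Ncr1, and in 14.3% of all windows. With so few genes, some of them neighbours, nothing is read from these shares. A match of 6 letters describes the window and is no evidence of binding, and letters that are missing here may stand outside it.

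**Figure D2:**
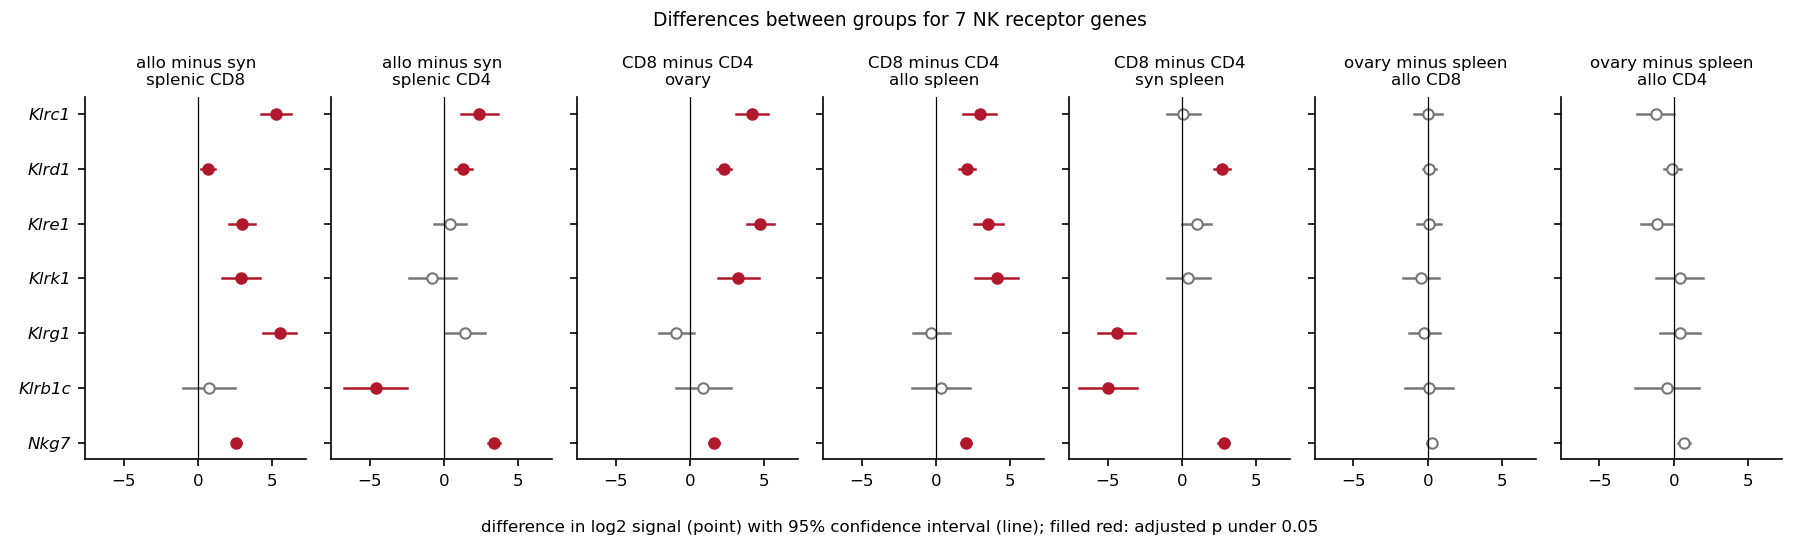
Difference in log2 signal (points) with its 95% confidence interval (lines) for 7 NK receptor genes in the 7 comparisons of 2 groups; filled red points had an adjusted p under 0.05. The columns for ovary against spleen hold no filled point, and Klrb1c and Klrg1 are the genes with filled points left of 0.

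In splenic CD4+ cells the same contrast gave 3 genes that rose, Nkg7, Klrc1 and Klrd1, and 1 that fell, Klrb1c. Without syngeneic replicate 1 the count was 2 in all. Of all features, 10.4% were called higher and 5.7% lower. The median over the 7 genes was 1.31, against 0.04 over all features. Nkg7 had 6.88 and 6.52 in allogeneic CD4+ cells, against 3.42 and 3.22 in syngeneic ones, a difference of 3.38 ± 0.18 (adjusted p = 1.34e-06). Both allogeneic arrays lay far above both syngeneic ones, and the second probe differed by 3.80 ± 0.32. Klrc1 had -2.05 and -1.001 in allogeneic cells, against -4.41 and -3.40 in syngeneic ones, all 4 arrays well above background. Its groups did not overlap, at 2.38 ± 0.57 (adjusted p = 0.0145), but the call was lost without allogeneic replicate 2 (1.86, adjusted p = 0.0785), without syngeneic replicate 1 (1.88, 0.137), and after normexp background correction with quantile normalization (0.73, 0.0915).

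Klrd1 had 2.69 and 2.19 in allogeneic CD4+ cells, against 0.86 and 1.42 in syngeneic ones. The allogeneic arrays were the higher ones, by 1.31 ± 0.26 (adjusted p = 0.00587), a call lost without syngeneic replicate 1 (1.02, adjusted p = 0.0729). Klrg1 had 3.52 and 2.77 in allogeneic cells, against 1.78 and 1.66 in syngeneic ones, and although the groups did not overlap, the difference of 1.42 ± 0.63 did not pass the threshold (adjusted p = 0.145); after normexp background correction with quantile normalization it was 1.44 and did (adjusted p = 0.00234). Klre1 was well above background on no allogeneic and on both syngeneic CD4+ arrays, Klrk1 on none and on 1 of 2, and neither was called. In a fit of the 4 splenic CD4+ arrays alone, with no shared spread from the other groups, 0 of the 7 genes were called, beside 7 of all 22836 features, and Nkg7 had an adjusted p of 0.0555.

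Klrb1c moved the other way. Its brighter probe had -5.16 and -4.53 in allogeneic CD4+ cells, not well above background on either array, against -0.64 and 0.11 in syngeneic ones. The syngeneic CD4+ group was the only group of the 6 in which both, or all, arrays were well above background, and the allogeneic level was at least 7.84-fold lower (fitted difference -4.58 ± 0.98, adjusted p = 0.00848; 0.0506 without syngeneic replicate 2). The probe passed the filter through that group alone, so filter and test read the same high values; with no filter Klrb1c was called too. Klrk1 likewise passed through the 2 allogeneic CD8+ groups alone. A bound of this kind takes the group that is not measured at the higher of its own value and the dimmest signal called well above background on each array. The second Klrb1c probe, matched to another transcript of the gene, had -5.01 and -4.43 in allogeneic CD4+ cells, against -2.72 and -2.08 in syngeneic ones, and was not called (-2.32 ± 1.26, adjusted p = 0.248). It also read -0.98, well above background, on replicate 1 of syngeneic splenic CD8+ cells, where the brighter probe read -5.72, so the 2 probes disagree on that array.

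**Figure D3:**
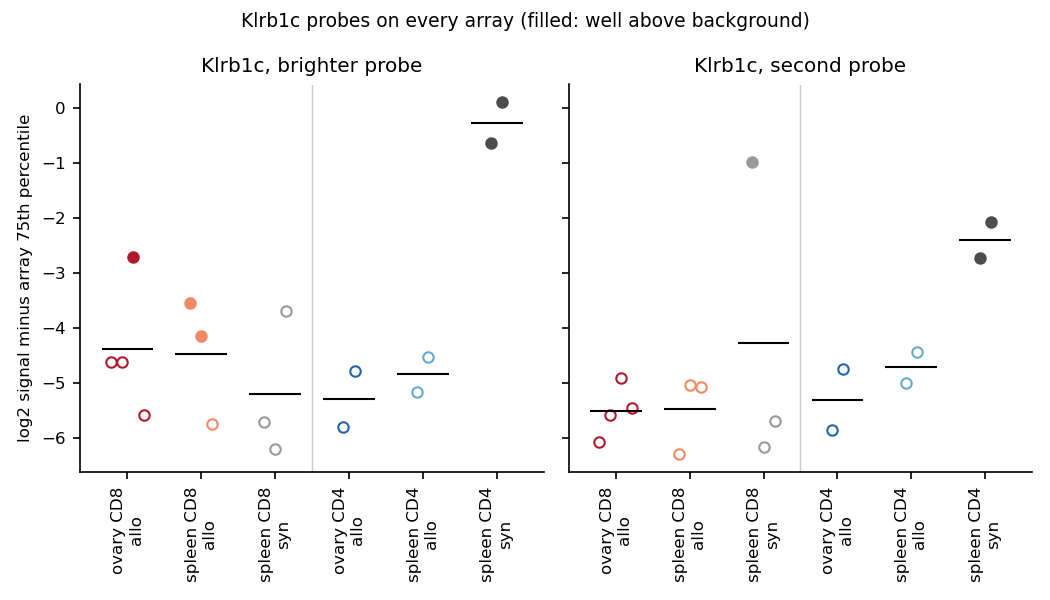
Level of Klrb1c by its brighter probe (left) and by its second probe (right) on each of the 16 arrays (log2 signal minus the array's 75th percentile, vertical axis); filled points were well above background and lines are group means. Both probes are high on the 2 syngeneic CD4+ arrays, and the second alone is high on 1 syngeneic CD8+ array.

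Zbtb16, which encodes the transcription factor PLZF of NKT cells, averaged -3.72 ± 0.96 in allogeneic CD4+ cells, with 1 of 2 arrays well above background, and 2.06 ± 0.13 in syngeneic ones (SD, n = 2 each), a difference of -5.78 ± 0.49 (adjusted p = 2.84e-05). The related receptor genes Klrb1a (at least 5.52-fold lower, adjusted p = 0.0116) and Klrb1 (at least 3.32-fold lower, adjusted p = 0.0039) fell as well. Over the list of gamma delta and innate-like T cell genes, 6 of 10 had a probe and 4 were tested. Of those, 2 fell, Zbtb16 among them, beside 5.7% of all features. Cd163l1, a scavenger receptor gene of gamma delta T cells, rose by 3.51 ± 0.94 (adjusted p = 0.0252), beside 10.4% of all features higher. The summed level of the 6, on the linear scale relative to the 75th percentile, ran from 2.25 to 4.31 in allogeneic and from 4.98 to 5.76 in syngeneic CD4+ cells. Of 8 B cell genes 4 fell in the same comparison, beside 5.7% of all features, with sums of 9.63 to 9.71 in allogeneic and 31.5 to 65.6 in syngeneic CD4+ cells. What part the cells of these lists have in the Klrb1c difference was not tested.

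The transplant contrast itself differed between CD8+ and CD4+ cells for 6 of the 7 genes by the interaction term, taken as the CD8+ difference minus the CD4+ one. Of these terms, 5 were above 0, beside 5.27% of all features, and 1 was below it, beside 6.67%. The term was 4.07 ± 0.81 for Klrg1 (adjusted p = 0.00883), 2.85 ± 0.73 for Klrc1 (0.0274), 2.53 ± 0.63 for Klre1 (0.024) and 3.66 ± 0.94 for Klrk1 (0.0277). For Klre1 and Klrk1 the CD4+ side rests on levels at or near background. The Klrc1, Klrg1 and Klrk1 terms also use syngeneic CD8+ levels, well above background on 1, 2 and 2 of 3 arrays. The Klrb1c term was 5.31 ± 1.27 (0.0201), from a difference of 0.73 in CD8+ and -4.58 in CD4+ cells, and its second probe gave 1.13 ± 1.62, not called. By the brighter Klrb1c probe, no syngeneic CD8+ and no allogeneic CD4+ array was well above background. That probe passed the filter through the syngeneic CD4+ group alone. Nkg7 had the 1 term below 0, -0.79 ± 0.24 (0.0486), close to the threshold and lost in many other settings, and its second probe gave -0.85 ± 0.42, not called. The Klrd1 term was -0.63 ± 0.34 (0.23). The count of 6 fell to 1, Klrg1, without syngeneic CD4+ replicate 2, to 2 without allogeneic CD4+ replicate 1 or syngeneic CD8+ replicate 2, and to 3 without allogeneic CD8+ replicate 1 or 2; the Klrg1 term was called whichever single array was left out. Where 1 CD4+ array is left in a group, these fits assume that it varies like the other groups.

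**Figure D4:**
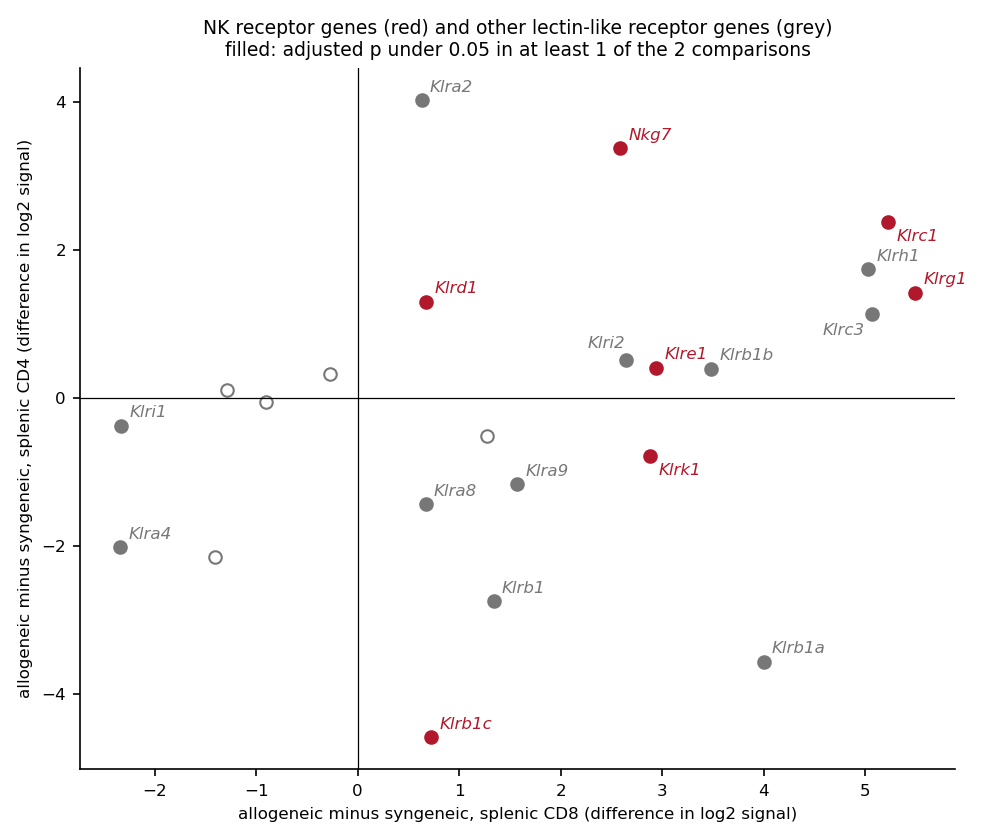
Allogeneic minus syngeneic difference in log2 signal in splenic CD8+ cells (horizontal axis) and splenic CD4+ cells (vertical axis) for 7 NK receptor genes (red) and 16 other lectin-like receptor genes (grey); filled points had an adjusted p under 0.05 in at least 1 comparison. Klrc1 and Klrg1 lie far to the right, Nkg7 is high on both axes, and Klrb1c lies lowest.

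CD8+ and CD4+ cells were compared within each site to ask which T cell subset carries the genes. In the ovary 5 genes were higher in CD8+ cells, Klrc1, Klrd1, Klre1, Klrk1 and Nkg7, beside 8.47% of all features. The same 5 were higher in allogeneic spleen, beside 15.2%. In syngeneic spleen 2 were higher in CD8+ cells, Klrd1 and Nkg7, beside 1.27%, and 2 were lower, Klrg1 and Klrb1c, beside 2.88%. Of the genes called, Klrk1 passed the filter through the allogeneic CD8+ groups alone and Klrb1c through the syngeneic CD4+ group alone. For both, filter and test read the same high values. The median over the 7 genes was 2.29 in ovary, 2.08 in allogeneic spleen and 0.42 in syngeneic spleen, against 0.07, -0.06 and 0.10 over all features.

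Ovarian CD8+ cells had Klrc1 levels of 1.38, 1.41, 1.67 and 1.35, against -2.84 and -2.65 in ovarian CD4+ cells. The 4 CD8+ arrays were close together and far above both CD4+ arrays (4.20 ± 0.49, adjusted p = 0.000209), and in allogeneic spleen the difference was 2.95 ± 0.52 (adjusted p = 0.00179). In syngeneic spleen Klrc1 was near background in both subsets and differed by 0.10 ± 0.52. Klre1 had -0.05, 0.03, 1.24 and 0.09 in ovarian CD8+ cells, against -4.82 and -3.98 in ovarian CD4+ cells, where neither array was well above background. It was therefore at least 11.9-fold higher in CD8+ cells in the ovary (adjusted p = 3.29e-05) and at least 10.5-fold higher in allogeneic spleen (adjusted p = 0.000236). Klrk1 had -1.67, -1.70, -1.36 and -1.69 in ovarian CD8+ cells, against -5.90 and -3.81 in CD4+ cells, again not well above background. Here too Klrk1 passed the filter through the allogeneic CD8+ groups alone, so filter and test read the same high values. Its CD8+ level was at least 3.13-fold higher in ovary (adjusted p = 0.00526; 0.0567 without ovarian CD4+ replicate 1) and at least 4.19-fold higher in allogeneic spleen (adjusted p = 0.00117).

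Klrd1 had 4.54, 4.68, 4.54 and 4.69 in ovarian CD8+ cells, against 2.06 and 2.59 in ovarian CD4+ cells, and was higher in CD8+ cells at every site, by 2.29 ± 0.23 in ovary (adjusted p = 6.65e-05), 2.08 ± 0.24 in allogeneic spleen (0.000131) and 2.71 ± 0.24 in syngeneic spleen (4.98e-05). Nkg7 had 8.92, 8.98, 8.97 and 9.04 in ovarian CD8+ cells, against 7.50 and 7.21 in ovarian CD4+ cells. It too was higher in CD8+ cells at every site, by 1.62 ± 0.16, 2.02 ± 0.17 and 2.81 ± 0.17 in ovary, allogeneic spleen and syngeneic spleen. Klrg1 did not share this pattern: it had 2.54, 2.52, 2.95 and 2.48 in ovarian CD8+ cells, against 3.85 and 3.24 in ovarian CD4+ cells, a difference of -0.92 ± 0.54 that was not called (adjusted p = 0.265). It was called with only the groups compared (-0.92, adjusted p = 0.0383) and with normexp and quantile normalization (-1.07, 0.0079), as was the allogeneic splenic difference in that last setting (-0.92, 0.0138). In syngeneic spleen Klrg1 was lower in CD8+ than in CD4+ cells by -4.37 ± 0.57 (adjusted p = 0.000817; 0.0528 with only the groups compared), with every syngeneic CD8+ array below both CD4+ ones. Klrb1c was at least 13.96-fold lower in syngeneic splenic CD8+ than CD4+ cells by its brighter probe (adjusted p = 0.00682; 0.0929 without CD4+ replicate 2). That probe passed the filter through the syngeneic CD4+ group alone, so filter and test read the same high values. By the second Klrb1c probe the difference was -1.88 ± 1.15 (adjusted p = 0.576). On that probe syngeneic CD8+ replicate 1 lay above both CD4+ arrays, so the bound holds for the brighter probe alone. The comparison also had Zbtb16 lower by -5.84 ± 0.45 and Klrb1a at least 13.1-fold lower.

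Ordered by group mean, Klrc1 ran from ovarian and allogeneic splenic CD8+ cells, which overlapped, through allogeneic splenic CD4+ and ovarian CD4+ cells to the 2 syngeneic groups, which overlapped with each other; ovarian CD4+ cells overlapped with syngeneic CD8+ cells as well. Klrd1 ran from the 2 allogeneic CD8+ groups, which overlapped, through syngeneic CD8+ cells and the 2 overlapping allogeneic CD4+ groups to syngeneic CD4+ cells. Nkg7 had its 2 allogeneic CD8+ groups at the top, also overlapping, then ovarian CD4+, allogeneic splenic CD4+, syngeneic CD8+ and syngeneic CD4+ cells, with no overlap between these neighbours. Klrg1 was highest in the 2 allogeneic CD4+ groups, which overlapped with each other and with allogeneic splenic CD8+ cells, and lowest in syngeneic CD8+ cells.

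Ovary was set against spleen among allogeneic cells to ask whether the genes differ between the target organ and a lymphoid organ. None of the 7 genes was called in CD8+ cells, where limma called 0.53% of all features, and none had an unadjusted p under 0.05, beside 8.31% of features. Their differences ran from -0.43 ± 0.56 for Klrk1 to 0.25 ± 0.14 for Nkg7, and the 2 groups overlapped for all 7. The 95% interval was -0.90 to 0.97 for Klrc1, -0.34 to 0.53 for Klrd1, -1.26 to 0.81 for Klrg1 and -0.05 to 0.56 for Nkg7. In CD4+ cells again none was called, beside 0.906% of features, and 2 had an unadjusted p under 0.05, beside 15.7% of features. These were Nkg7, with 7.50 and 7.21 in ovary, against 6.88 and 6.52 in spleen (0.66 ± 0.18, adjusted p = 0.125), and Klre1, which was not well above background in either group. Klrc1 had -2.84 and -2.65 in ovarian CD4+ cells, against -2.05 and -1.001 in splenic ones, a difference of -1.22 ± 0.57 with a 95% interval of -2.45 to 0.01. The ovary contrast differed between the subsets for none of the 7 genes, beside 0% of features called and 11.1% with an unadjusted p under 0.05, and none of the 7 reached that p either. Genes of ovarian somatic cells were higher in the ovarian sorts, 4 of 11 tested in CD8+ and 2 of 11 in CD4+ cells, beside the 0.53% and 0.906% of features above. Hsd3b1, of steroid synthesis, was at least 36.2-fold higher in ovarian than in splenic CD8+ cells. The genes called, Hsd3b1, Cyp11a1, Mgp and Wt1, passed the filter through ovarian groups alone, so filter and test read the same high values.

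Ncr1, whose product NKp46 defines NK cells, was well above background on 3 of 16 arrays, 1 each of ovarian CD8+, syngeneic splenic CD8+ and syngeneic splenic CD4+ cells. It was so on 0 of the 3 allogeneic splenic CD8+ arrays. Without the filter Ncr1 was called in 0 of the 9 contrasts, with adjusted p-values of 0.223 or more. Of 16 NK cell genes, a list that holds Klrb1c and Ncr1 too, all had a probe and 14 were tested. In allogeneic splenic CD8+ cells 7 rose and 3 fell, beside 18.8% higher and 19.6% lower over all features. Among those that rose were Spry2 (-2.14 in allogeneic, -5.03 in syngeneic cells) and Klri2 (-3.15, -5.78), and among those that fell Klra4 (-1.67, 0.67) and Tyrobp (0.57, 2.53). Spry2 passed the filter through the allogeneic CD8+ groups alone. The summed level of the 16 relative to the 75th percentile was 458 to 770 in allogeneic and 80.8 to 99.9 in syngeneic CD8+ cells. Without Gzma and Eomes, which cytotoxic T cells also express, the sum of the other 14 was 59.6 to 73.9 in allogeneic and 64.2 to 77 in syngeneic splenic CD8+ cells, and 53.9 to 56.2 in ovarian ones. That sum rests mostly on Txk, a T cell kinase gene too, at 4.37 in allogeneic and 5.27 in syngeneic splenic CD8+ cells, and Osbpl5, at 5.29 in allogeneic and 4.08 in syngeneic ones, so it says little of the rest of the list. The part of NK cells in the receptor differences was not tested beyond these values.

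A further 20 lectin-like receptor genes of the NK gene complex were followed as a list, 16 of them tested. In allogeneic splenic CD8+ cells 7 rose and 2 fell, with a median of 0.97, beside 18.8% higher and 19.6% lower over all features. Besides Klrc3, Klrh1 was at least 9.89-fold higher (adjusted p = 3.67e-07), Klrb1b at least 9.70-fold (4.27e-05), Klrb1a at least 5.76-fold (0.000486) and Klri2, a partner of Klre1, at least 2.30-fold (0.0158), whereas Klra4, a gene of the Ly49 receptors, fell by 2.34 (0.0184). Klrh1 passed the filter through the allogeneic CD8+ groups alone, so for this gene filter and test read the same high values. In splenic CD4+ cells 2 of the 16 rose and 3 fell, beside 10.4% higher and 5.7% lower over all features, so the rises are near the share over all features. Among those that fell was Klra8, which encodes the activating receptor Ly49H, at -1.43 ± 0.34 (adjusted p = 0.0141). Klrh1, counted among those that rose, was well above background on none of the 4 splenic CD4+ arrays. Klra8 was higher in CD8+ than CD4+ cells in ovary (2.41 ± 0.29) and allogeneic spleen (3.69 ± 0.31). Ly49 genes are close relatives, and the signal of a probe may include another gene's transcript. In ovary against spleen 0 of the 16 were called in either subset, beside 0.53% of all features in CD8+ and 0.906% in CD4+ cells.

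Of 14 tested NK-type receptors outside the lectin-like family, 6 rose and 0 fell in allogeneic splenic CD8+ cells, with a median of 0.64. Over all features 18.8% were called higher and 19.6% lower. Tigit, an inhibitory receptor for nectin-like ligands, rose by 6.56 ± 0.18 (adjusted p = 1.18e-09) with 1 of 3 syngeneic arrays well above background, Lilrb4a by 6.04 ± 0.41, Cd160 by 3.85 ± 0.39 and Slamf7 by 1.43 ± 0.32. In CD4+ cells 4 rose and 1 fell, beside 10.4% higher and 5.7% lower over all features: Tigit rose by 4.00 ± 0.22 and Lilrb4a by 5.80 ± 0.51, while Cd160 was at least 3.29-fold lower (adjusted p = 0.00673). Cd160 was at least 41.4-fold higher in CD8+ than CD4+ cells of allogeneic spleen, and by 3.89 ± 0.41 on the log2 scale in ovary.

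Of 14 tested adaptors and kinases, 4 rose and 2 fell in allogeneic splenic CD8+ cells, with a median of 0.10, beside 18.8% higher and 19.6% lower over all features. Sh2d1a, which encodes the adaptor SAP of the SLAM receptors, rose by 1.84 ± 0.16 and the kinase gene Zap70 by 0.82 ± 0.13, and Ptpn6, which encodes the phosphatase SHP-1 that inhibitory NK receptors recruit, fell by 1.16. Hcst, the DAP10 adaptor gene of NKG2D, averaged 7.51 ± 0.21 in allogeneic and 7.40 ± 0.05 in syngeneic splenic CD8+ cells (SD, n = 3 each) and was higher in CD8+ than in CD4+ cells of the ovary (0.66 ± 0.19, adjusted p = 0.0338). Tyrobp, the DAP12 adaptor gene, fell by 1.96 in allogeneic splenic CD8+ cells, and with Fcer1g it was lower in CD8+ than in CD4+ cells of the ovary (-3.31 ± 0.65 and -2.78 ± 0.53). Macrophage and dendritic cell genes moved the same way as those 2 adaptors between the ovarian subsets: 8 of 11 tested were lower and 1 higher in CD8+ cells, beside 9.03% of all features lower, and their sums were 18.7 to 22.5 in ovarian CD8+ and 40.8 to 98.8 in ovarian CD4+ cells. Their part in the adaptor differences was not tested.

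Among 12 tested ligand genes, 1 rose and 2 fell in allogeneic splenic CD8+ cells, H2-K1 rising by 0.44 ± 0.12 and Clec2i falling by 1.19, with a median of -0.12, shares no larger than those over all features. In ovary against spleen 1 of the 12 was called higher in CD8+ cells, where 0.53% of all features were called, and 0 in CD4+ cells. The cadherin gene Cdh1 averaged -0.72 ± 0.20 in ovarian and -4.49 ± 0.81 in allogeneic splenic CD8+ cells (SD), with 2 of 3 splenic arrays well above background. A list of 18 transcription factor and cytokine receptor genes was chosen as possible regulators of NK receptor genes, and their part here was not tested. Of these, 13 rose and 1 fell in allogeneic splenic CD8+ cells, with a median of 1.93, beside 18.8% higher and 19.6% lower over all features. Tox rose by 3.27 ± 0.18, Prdm1 by 4.40 ± 0.25, Il2rb, a chain of the interleukin-15 receptor, by 2.44 ± 0.21, Tbx21 by 2.95 ± 0.33 and Eomes by 1.80 ± 0.20, and Tcf7, a gene of naive and memory T cells, fell by 2.20. In allogeneic splenic CD4+ cells 9 rose and 1, Zbtb16, fell, beside 10.4% higher and 5.7% lower over all features. Of granule and killing genes, the setting in which the Nkg7 protein works, 11 of 14 rose and 1 fell in allogeneic splenic CD8+ cells, with a median of 2.03, beside the same 18.8% and 19.6%. Gzmb rose by 7.41 ± 0.43, Fasl by 4.91 ± 0.33, Gzmk by 3.27 ± 0.32 and Prf1 by 2.05 ± 0.15. In CD4+ cells 5 rose and 0 fell, beside 10.4% higher and 5.7% lower over all features, and Gzmb was among those that rose, at 4.98 ± 0.48.

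For each gene the 3 symbols of highest Pearson r over the 16 arrays were listed among 13529 compared. Nkg7 ran closest to Cst7 (r = 0.977), which encodes the cathepsin inhibitor cystatin F, then Chst11 (0.976) and Agpat4 (0.975). Klrc1 ran closest to Faxc (0.981), B930018H19Rik (0.977) and Myef2 (0.976), Klrd1 to Ostf1 (0.966), Wdr95 (0.959) and Lmo1 (0.957), and Klrg1 to Arhgef5 (0.962), Nrp1 (0.962) and Slc4a8 (0.956). Klre1 ran closest to Rtraf (0.95), Tsga10 (0.947) and the perforin gene Prf1 (0.941), Klrk1 to Prr5l (0.948), Rhoq (0.947) and the receptor gene Cd160 (0.945), and Klrb1c to Tcf4 (0.846), Upb1 (0.845) and Cox6a2 (0.837). Within the set, r was 0.91 between Klre1 and Klrk1, 0.89 between Klre1 and Klrc1 and -0.08 between Klrd1 and Klrg1. These values describe 16 arrays in 6 groups that differ between subsets and transplants, which the points share.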

How the data were processed

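The 16 deposited scanner tables hold 1 array each: the intensity of every spot, from which Feature Extraction 11.5.1.1 had removed background and spatial trend, per the file headers. The deposited series matrix holds log2 values, used as an alternative; the software behind their normalization is not given in sources read here. The 75th percentile of each array was subtracted from its log2 signal. Probes were named through accessions (RefSeq, GRCm38.p6), filtered to those with 1 or more groups entirely well above background (31122 of 55681 probes), and reduced to the brightest probe a gene, leaving 22836 features, 13697 with a symbol.

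A limma 3.58.1 model (R 4.3.3) with a mean per group was fitted to 16 arrays (residual degrees of freedom 10, prior 2.16), p-values were adjusted by Benjamini-Hochberg over all features, and the script was tested on simulated data. The number of arrays limits the precision. Replicate numbers were not taken as pairs, since the labels do not say what they share. The members, lists and comparisons were chosen with earlier results of these data known. From each list at most 6 called genes per comparison, smallest p first, could be named; Hcst, Klrb1c's second probe and other uncalled values were given beyond that rule, chosen after their values were seen. The result for 1 gene of the innate-like T cell list is not reported here.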

Additional observations from a re-analysis of the deposited data

Results flagged for a closer look

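In ovarian CD8+ cells 1 array, replicate 3, stood apart from the other 3 for 3 of the 8 genes measured: Klrk1 at -1.36, Klrg1 at 2.95 and Klre1 at 1.24 were each above the rest by more than Dixon's 95% critical value allows for a group of 4. Chance marks about 1 in 20 groups for any given gene, but the 3 genes were read on the same array and are not separate tests. Its 75th percentile was 190.1 signal units, against 338, 343.1 and 310.7 on the other 3, and the part of this was not tested. Leaving out this array lost no call among Klrk1, Klrg1 and Klre1.

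The allogeneic against syngeneic difference was itself different in splenic CD8+ and CD4+ cells, by the limma interaction term, for Klrb1c (5.31), Klrc1 (2.85), Klre1 (2.53), Klrg1 (4.07), Klrk1 (3.66) and Nkg7 (-0.79), with adjusted p-values between 0.00883 and 0.0486. Each of these calls was lost in some other settings, that of Nkg7 in 22 of 29 and those of Klrc1 and Klrk1 in 8 of 28 each. The second probes of Klrb1c (1.13 ± 1.62) and Nkg7 (-0.85 ± 0.42) were not called.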

How the results depend on the processing

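Of 30 calls of a member in a comparison, 3 held in every other setting that tested the member. These were Nkg7 (29 settings), Klrc1 and Klrg1 (28 each) in allogeneic against syngeneic CD8+ cells, and the filter on all 16 arrays left the last 2 untested. There was also 1 difference with no call that reversed: with estimated array weights, whose estimation stopped before convergence, Klrb1c was -0.744 in ovarian against splenic CD8+ cells. Counts of members called moved past 1.5 times as follows. With array weights 4 were called in ovary against spleen CD8+ cells, beside 10642 of all 22836 features, and 1 in allogeneic against syngeneic CD4+ cells, beside 945. With probes well above background on all 16 arrays, which leaves Klrd1 and Nkg7 to test, 2 were called in allogeneic against syngeneic cells of either subset and in CD8+ against CD4+ cells at each site, and 1 in the transplant interaction, where no filter gave 3. With only the groups compared, 0 were called in allogeneic against syngeneic CD4+ cells, beside 7 features, 2 in CD8+ against CD4+ cells of syngeneic spleen and 2 in the transplant interaction. On slide 2 alone, where 4 of 6 groups have 1 array, 3 were called in allogeneic against syngeneic CD8+ cells, beside 1901 features, and 0 in the other comparisons, beside 27 features in CD8+ against CD4+ cells of ovary, 23 in allogeneic spleen and 0 elsewhere. A lone array, here and where 1 of 2 is left out, is assumed to vary like the other groups. Leaving out each array in turn gave 5 to 6 for allogeneic against syngeneic CD8+, 2 to 4 for CD4+, 4 to 5 for CD8+ against CD4+ in ovary, 5 to 5 in allogeneic spleen, 3 to 4 in syngeneic spleen, 1 to 6 for the transplant interaction and 0 to 0 for the others. Same-numbered samples of different groups had deviations that correlated at -0.439 to 0.454 (33 pairs, 20 over 0.1, every replicate-1 pair above 0, all of them on slide 1), so not every pair deviated together. Deviations were from the group mean, so the 2 arrays of a CD4+ group mirror each other. The CD4+ pairs of replicate 2 therefore repeat the values of replicate 1 (0.234, 0.337 and 0.201). Of the 16 samples, 9 correlated best with their own number. Ovarian CD8+ replicate 4 had no same-numbered sample and could not do so. The replicate block lost the Nkg7 interaction (adjusted p = 0.0597), leaving 5, and changed no other call. Leaving out the 2 dimmest arrays, an alternative chosen after seeing the data, gave 3 for allogeneic against syngeneic CD4+ cells, losing Klrc1. Levels near background limit the sizes given for Klrk1, Klre1, Klrb1c and Ncr1. They also limit those of Klrc1 and Klrg1 against syngeneic CD8+ cells, where not every array was well above background. Across settings the allogeneic against syngeneic CD8+ difference ran from 3.01 to 5.85 for Klrc1 and from 3.38 to 6.00 for Klrg1.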
